A study of Mus musculus with 12 samples.

Results

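Wild-type (wt) mice had received injections of saline or CL for 7 days, and RNA-seq gene counts were made from their perigonadal fat, a visceral white depot next to the gonads. The 6 libraries were chosen by their sample titles, 3 of wt saline and 3 of wt CL, of 12 in the series. The other 6, ko saline and ko CL, came from mice with an adipose-specific knockout of Cdk7 under the same treatments. All 4 groups were C57BL/6 mice of 9 weeks on standard chow, with tissue taken at zeitgeber time 9, counted in hours from lights on, and the wt mice were control littermates of the ko mice. The drug is named only as CL, the usual abbreviation of a beta-3-adrenergic agonist. Each library pooled 250 ng of RNA from each of 2 mice, so 6 mice stood behind a group and p-values measure the spread between such pools. The sources used here do not give the Cre line. The genotype characteristic follows treatment and goes against the titles of 6 libraries, naming the knockout for the 3 of wt CL and the wild type for the 3 of ko saline. Cdk7 was at 29.3 to 30.0 CPM (a gene's counts relative to the total of its library, scaled by edgeR's TMM method) in wt saline and 30.4 to 35.4 CPM in wt CL (log2 fold change of CL over saline 0.14 ± 0.09 SE, adjusted p = 0.251), a difference that was -0.18 with library size as the only scaling. In ko saline and ko CL it was at 11.02 to 11.7 and 18.1 to 23.6 CPM. Adipocyte markers were present in all 6 wt libraries, with Adipoq at 3004 to 3610 CPM under saline and 2613 to 2859 CPM under CL.

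Noradrenaline from sympathetic nerves acts on the beta-3-adrenergic receptor of adipocytes, which couples through a stimulatory G protein to adenylyl cyclase. The cyclic AMP formed activates protein kinase A, which starts lipolysis at the lipid droplet and switches on thermogenic genes. Over days of stimulation, white fat gains adipocytes with many small droplets, more mitochondria and the uncoupling protein UCP1. Released fatty acids are burnt, and are also built back into triglyceride, which takes glycerol 3-phosphate and, for new fatty acids, NADPH.

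Of 16554 genes tested, 3249 (19.6%) were higher and 2836 (17.1%) lower under CL in edgeR's quasi-likelihood test at a Benjamini-Hochberg adjusted p of 0.05. These shares of all genes are the background for the counts of list members below. At least 2-fold differences were called for 709 genes higher (4.28%) and 723 lower (4.37%). Many calls were small: 1840 of the higher and 1233 of the lower genes differed by less than 1.5-fold, while 28 rose and 98 fell 8-fold or more. All of those 28 were still called when each wt library was left out in turn. Of the 98, 62 were not called without wt saline 1, 8 without wt saline 2 and 2 without wt saline 3, and 71, 70 and 73 were not called without wt CL 1, 2 and 3. The 6 libraries held 21892817 to 27985019 gene counts. On the first principal component of these libraries (55.7% of the variance) saline lay at -59.8 to -27.4 and CL at 37.7 to 42.8, and the second (22.1%) set wt saline 1, at 42.2, apart from wt saline 2, at -45.1. Mitochondrially encoded genes took 4.42% to 4.98% of counts under saline and 9.499% to 10.4% under CL, and the scaling factors of the TMM method were lower under CL (0.803 to 0.841) than under saline (1.005 to 1.04). With TMM the median log2 fold change of all genes was -0.01. With library size alone it was -0.33, with 1329 genes called higher and 8048 lower, so every value below is a change relative to the bulk of genes. In such bulk tissue, fewer cells of a type and less RNA per cell cannot be told apart.

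**Figure D1:**
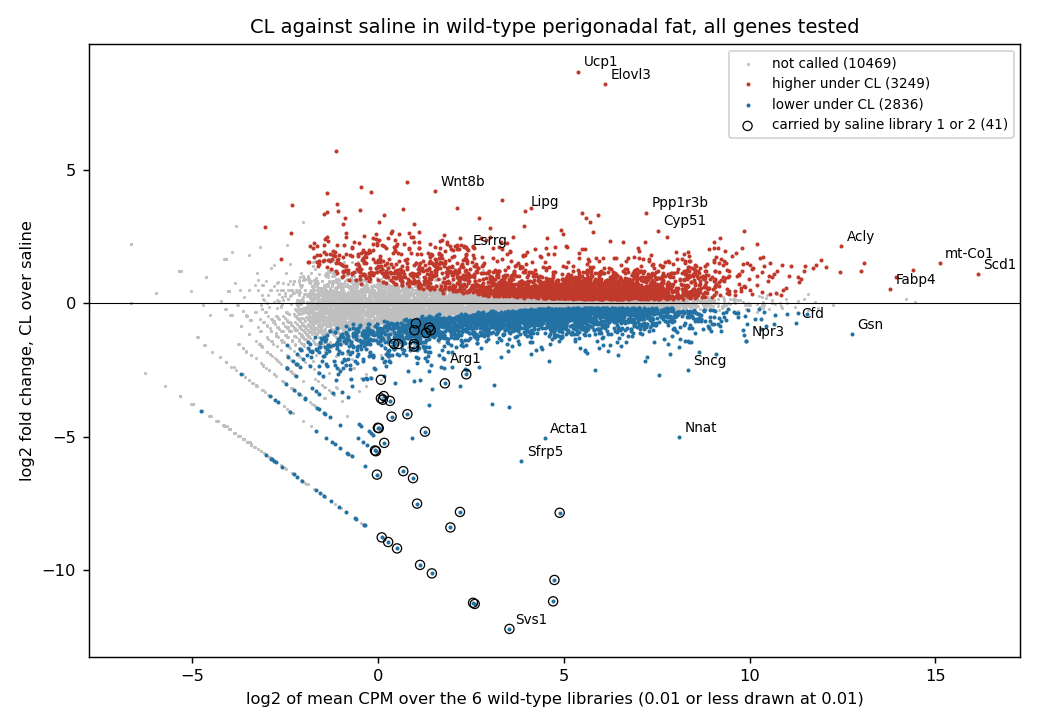
Log2 fold change of CL over saline against mean expression for the 16554 genes tested, with the genes called higher (3249) and lower (2836) coloured and the genes carried by 1 saline library marked. Ucp1 and Elovl3 lie at 8.66 and 8.19, and the lowest points belong to genes of the seminal vesicle, which wt saline 2 carried.

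Among called protein-coding genes with at least 5 CPM in 1 group and groups that did not overlap, the 15 largest increases held thermogenic genes and enzymes of lipid and glycogen handling. Ucp1 (ENSMUSG00000031710), the proton channel that turns respiration into heat, was at 0.339, 0 and 0.249 CPM under saline and 94.6, 78.5 and 76.6 CPM under CL (log2 fold change 8.66 ± 0.74 SE, adjusted p = 4.46e-06). Elovl3, an elongase of brown fat, was at 0.414, 0.280 and 0.676 and then 135, 141 and 135 CPM (8.19 ± 0.57, adjusted p = 1.09e-06). In both genes every CL library lay far above every saline library. Cox7a1 and Cox8b, the forms of cytochrome oxidase subunits typical of muscle and brown fat, rose 11.7-fold and 9.91-fold, and Slc25a34, a mitochondrial carrier, 11.9-fold. Lipg, endothelial lipase, was at 2.60, 2.60 and 2.67 CPM and then at 22.7, 27.4 and 35.8 CPM (3.45 ± 0.38, adjusted p = 2.32e-05). Ppp1r3b, whose product brings a phosphatase to glycogen, was at 29.1, 27.1 and 22.0 CPM and then at 274, 212 and 328 CPM (3.38 ± 0.35, adjusted p = 1.67e-05). The libraries of each group stayed apart for both. Aadac, a lipid esterase, was at 2.94, 0.440 and 0.498 CPM under saline, where wt saline 1 was the highest, and 18.8, 22.7 and 15.5 CPM under CL (3.87 ± 0.54). Hephl1, a copper oxidase related to hephaestin, rose 8.19-fold, Ttc25, a ciliary protein, 7.42-fold, Aspg, an asparaginase, 6.99-fold, and Adcy10, the soluble adenylyl cyclase, 6.69-fold.

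Ucp1 and 3 other genes were under 0.5 CPM in every saline library and at 2 CPM or more in every CL library, and no gene met the reverse condition. These were Wnt8b, a Wnt ligand, at 0.240 to 0.391 and 4.64 to 6.41 CPM (log2 fold change 4.18 ± 0.32 SE), Tgm3, a transglutaminase, at 0.107 to 0.200 and 3.15 to 3.58 CPM (4.52 ± 0.32), and Fabp3, the fatty acid binding protein of heart and brown fat, at 0.0801 to 0.414 and 2.39 to 3.26 CPM (3.52 ± 0.39). Among skeletal muscle markers, Mb, which encodes myoglobin, rose from 0.427 to 0.560 CPM under saline to 2.29 to 2.44 CPM under CL (2.22 ± 0.31), and Tnnc1 from 0.151 to 0.560 CPM under saline to 1.17 to 1.53 CPM under CL (1.89 ± 0.42), while Acta1, skeletal actin, fell from 25.6, 69.3 and 35.4 to 2.18, 0.706 and 1.07 CPM (-5.05 ± 0.47). Of 25 such markers 14 were tested, and 2 rose and 2 fell, or 1 without wt saline 2, wt saline 3, wt CL 2 or wt CL 3.

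By the same limits of level and overlap, the decreases were led by Sfrp5, a secreted Wnt inhibitor made by fat cells, at 21.1, 31.8 and 32.3 CPM under saline and 0.839, 0.380 and 0.204 CPM under CL (log2 fold change -5.92 ± 0.44 SE, adjusted p = 1.82e-06), 60.4-fold lower. Nnat, an imprinted proteolipid gene, was at 557, 596 and 446 and then 21.5, 17.0 and 10.9 CPM (-5.02 ± 0.27, adjusted p = 3.26e-07). Sncg, gamma-synuclein, a protein of nerve and fat cells, was at 486, 599.6 and 566 and then 105, 82.5 and 103 CPM (-2.51 ± 0.18, adjusted p = 1.13e-06). In these 3 genes every CL library lay below every saline library. Hspb7, a small heat shock protein, fell 14.9-fold, Prr32 13.8-fold, Plppr3 8.50-fold, Folh1, a folate hydrolase, 8.44-fold, Cacna1e, a calcium channel subunit, 5.68-fold, and Prkag3, a gamma subunit of the AMP-activated kinase, 5.49-fold. Lyz1, a lysozyme, was at 94.0, 93.7 and 103 and then 7.55, 12.8 and 31.2 CPM (-2.49 ± 0.34). It has a near-identical neighbour, Lyz2, at 637, 708 and 668 and then 373, 351 and 439 CPM, and the counting may have split or dropped their shared reads, so both are uncertain. Arg1, the arginase of alternatively activated macrophages, was at 7.80, 7.53 and 2.10 CPM under saline and 0.615, 0.869 and 1.68 CPM under CL (-2.44 ± 0.61, adjusted p = 0.00740), with wt saline 3 close to the CL libraries. Prom1 and Acsbg1, also among the 15, were carried by wt saline 1, at 22.3 and 15.7 CPM against at most 2.81 and 1.42 CPM in the other saline libraries.

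By difference in mean CPM, which is not scaled for gene length, the 10 largest rises were Scd1, mt-Co1, mt-Cytb, Fasn, mt-Nd1, Acly, mt-Nd5, Fabp4, mt-Nd4 and Me1. Scd1, a stearoyl-CoA desaturase, stood at 41022, 49202 and 49650 CPM under saline and 95560, 95027 and 104004 CPM under CL (log2 fold change 1.07 ± 0.21 SE, adjusted p = 0.00163). mt-Co1, a catalytic subunit of cytochrome oxidase, was at 16332 to 19767 and then 48549 to 54307 CPM (1.49 ± 0.13). The groups stayed apart in both. Fabp4, a fatty acid binding protein of adipocytes, was at 10730 to 11832 and 15853 to 17122 CPM (0.53 ± 0.15, adjusted p = 0.0127), a call that was lost without wt saline 1 (adjusted p = 0.0668) or with library size alone (adjusted p = 0.211). The 10 largest falls were Gsn, Cfd, Npr3, Ccdc80, Aoc3, Plin4, Hp, Ahnak, Fn1 and C4b, several of which encode secreted or matrix proteins. Gsn, the actin-severing protein gelsolin, was at 8853, 9701 and 9999 and then 4786, 4044 and 3977 CPM (-1.16 ± 0.12, adjusted p = 2.04e-05). Cfd, the adipokine adipsin, fell by 0.75 on the log2 scale (adjusted p = 0.0175), a call lost without wt CL 2 (adjusted p = 0.0676) or wt CL 3 (adjusted p = 0.0722). Plin4, a droplet coat protein, fell by 0.41 (adjusted p = 0.0215), a call lost without wt saline 1 (adjusted p = 0.0947) or wt CL 3 (adjusted p = 0.0981).

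The receptor that CL acts on was lower after 7 days. Adrb3, the beta-3 receptor, was at 698, 772 and 754 CPM under saline and 541, 511 and 511 CPM under CL (log2 fold change -0.51 ± 0.10 SE, adjusted p = 0.00126). Adrb1 was at 1.85, 1.001 and 1.32 and 2.18, 1.90 and 2.49 CPM and was not called (0.66 ± 0.26, adjusted p = 0.0645), except without wt saline 1 (adjusted p = 0.0240). The libraries stayed apart for both receptor genes. Of 25 tested genes of adrenergic receptors, their G proteins, cyclases and kinases, 3 rose and 10 fell (median -0.20), and 6, 5 and 6 fell without wt saline 2, wt CL 1 and wt CL 3. The 3 that rose were the alpha-1A receptor gene Adra1a, from 15.1 to 18.3 CPM under saline to 34.1 to 36.6 CPM under CL (1.06 ± 0.10), and the receptor kinase genes Grk3, from 30.8 to 34.3 CPM under saline to 65.0 to 90.3 CPM under CL (1.19 ± 0.12), and Grk5 (0.57). Arrb1, a beta-arrestin that takes receptors off the membrane, fell by 0.48.

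Downstream of the receptor, 13 of 37 genes of cyclic AMP effectors and feedback rose and 5 fell, with a median of 0.08, or -0.24 and 5 higher and 20 lower with library size alone. The number that fell was 3, 2, 3 and 3 without wt saline 1, wt saline 3, wt CL 2 and wt CL 3 in turn. Rgs2, a regulator that shortens G protein signals, was at 20.8, 15.01 and 17.2 CPM and then at 59.6, 84.3 and 72.4 CPM (log2 fold change 2.03 ± 0.17 SE, adjusted p = 4.55e-06). Prkaca, a catalytic subunit of protein kinase A, was at 186, 178 and 189.5 and then 326, 328 and 318 CPM (0.81 ± 0.09, adjusted p = 1.84e-05). Every CL library exceeded every saline library in both. Of the phosphodiesterases, which break down cyclic AMP, Pde8a rose by 0.76, Pde4a by 0.62, Pde7b by 0.60 and Pde4d by 0.59, of which the calls of Pde7b and Pde4d were lost with library size alone (adjusted p = 0.0693 and 0.130). Pde3b, which insulin activates in adipocytes, was at 412 to 420.5 and 403 to 433 CPM (0.01 ± 0.08, adjusted p = 0.920). Among immediate early genes, which cyclic AMP can induce within minutes, none of 24 was called higher at 7 days (1 without wt CL 1 or wt CL 2) and 9 fell (median -0.29). They included Jun, from 22.1 to 25.1 CPM under saline to 8.20 to 13.6 CPM under CL (-1.18 ± 0.18). Zfp36 and Klf4 fell by 1.03 and 0.72. Fos was at 4.97, 7.37 and 5.55 and 7.04, 5.70 and 1.93 CPM and was not called (adjusted p = 0.596).

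Among regulators of oxidative metabolism and mitochondrial biogenesis, 12 of 29 rose and 1 fell, with a median of 0.23 (6 higher and 10 lower with library size alone, median -0.09). Esrrg, an estrogen-related receptor of oxidative tissues, was at 3.09, 1.48 and 1.89 CPM under saline and 8.05, 9.34 and 8.09 CPM under CL (log2 fold change 1.98 ± 0.24 SE, adjusted p = 4.43e-05). Ppara, a receptor that drives fatty acid oxidation, was at 10.2, 7.53 and 9.75 and then 31.0, 25.4 and 23.0 CPM (1.53 ± 0.21, adjusted p = 0.000111). The groups did not overlap in either gene. The coactivator gene Ppargc1a was at 12.2, 12.4 and 11.7 and 19.8, 20.2 and 19.3 CPM (0.71 ± 0.17, adjusted p = 0.00593, or 0.0643 with library size alone), Esrra rose by 0.64 and Tefm, an elongation factor of mitochondrial transcription, by 0.83. Pparg, the master regulator of adipocytes, was not called (0.17 ± 0.11, or -0.15 with library size alone, adjusted p = 0.264). Of 22 transcription factors and inducers of beige fat, 4 rose and 5 fell, shares near those of all genes (3 higher and 12 lower with library size alone). Prdm16, which holds cells in the brown lineage, was at 8.26 to 10.1 and 8.66 to 9.40 CPM (-0.03 ± 0.14, adjusted p = 0.898).

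Thermogenic effectors had the highest median of the 82 lists, 2.05, with 17 of 23 higher and 0 lower. Without wt saline 2, 2 were lower, as were 2 with library size alone. Cidea, a droplet protein of brown fat, was at 4.71, 7.04 and 11.6 CPM and then at 91.8, 68.2 and 85.4 CPM (log2 fold change 3.39 ± 0.41 SE, adjusted p = 5.14e-05). Pank1, which makes the precursor of coenzyme A, was at 7.15, 6.52 and 7.97 and then 30.0, 30.7 and 28.9 CPM (2.05 ± 0.12, adjusted p = 5.05e-07). No CL library reached down to the saline libraries in either. Dio2, the enzyme that makes active thyroid hormone, rose 5.54-fold, Otop1, a proton channel, 5.49-fold, Acot11, an acyl-CoA thioesterase of brown fat, 4.30-fold, and Kcnk3, a potassium channel of brown adipocytes, 2.33-fold. Fgf21, a hormone that thermogenic fat can secrete, was at 0.151, 0.280 and 0.142 and 0.783, 0.543 and 0.458 CPM (1.62 ± 0.52, adjusted p = 0.0258), and its call was lost without wt saline 1, wt saline 3, wt CL 1 or wt CL 2 (adjusted p = 0.0835, 0.0845, 0.0923 and 0.0505).

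Heat can also come from cycles that spend ATP: phosphocreatine is made and broken down, or calcium is pumped into the endoplasmic reticulum and leaks out. Of 17 tested genes of these cycles 3 rose and 7 fell (median -0.41, or 1 higher and 10 lower with library size alone). Ckb, the cytosolic creatine kinase of thermogenic fat, was at 30.8, 34.2 and 27.3 CPM under saline and 16.3, 13.7 and 12.1 CPM under CL (log2 fold change -1.13 ± 0.18 SE, adjusted p = 0.000334). The creatine-making enzymes were lower too, Gatm from 10.996, 13.1 and 11.4 to 8.55, 7.01 and 6.87 CPM (-0.66 ± 0.16, adjusted p = 0.00641) and Gamt from 33.5 to 40.7 CPM under saline to 15.8 to 18.6 CPM under CL (-1.11 ± 0.10). All CL libraries lay below all saline libraries in these 3 genes. Ckmt1, a mitochondrial creatine kinase, fell from 0.801 to 1.28 CPM under saline to 0.153 to 0.280 CPM under CL. Atp2a2, the SERCA2 calcium pump, rose 1.22-fold, a direction that turned to -0.03 on the log2 scale with library size alone, and Atp2a3 fell 1.91-fold.

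**Figure D2:**
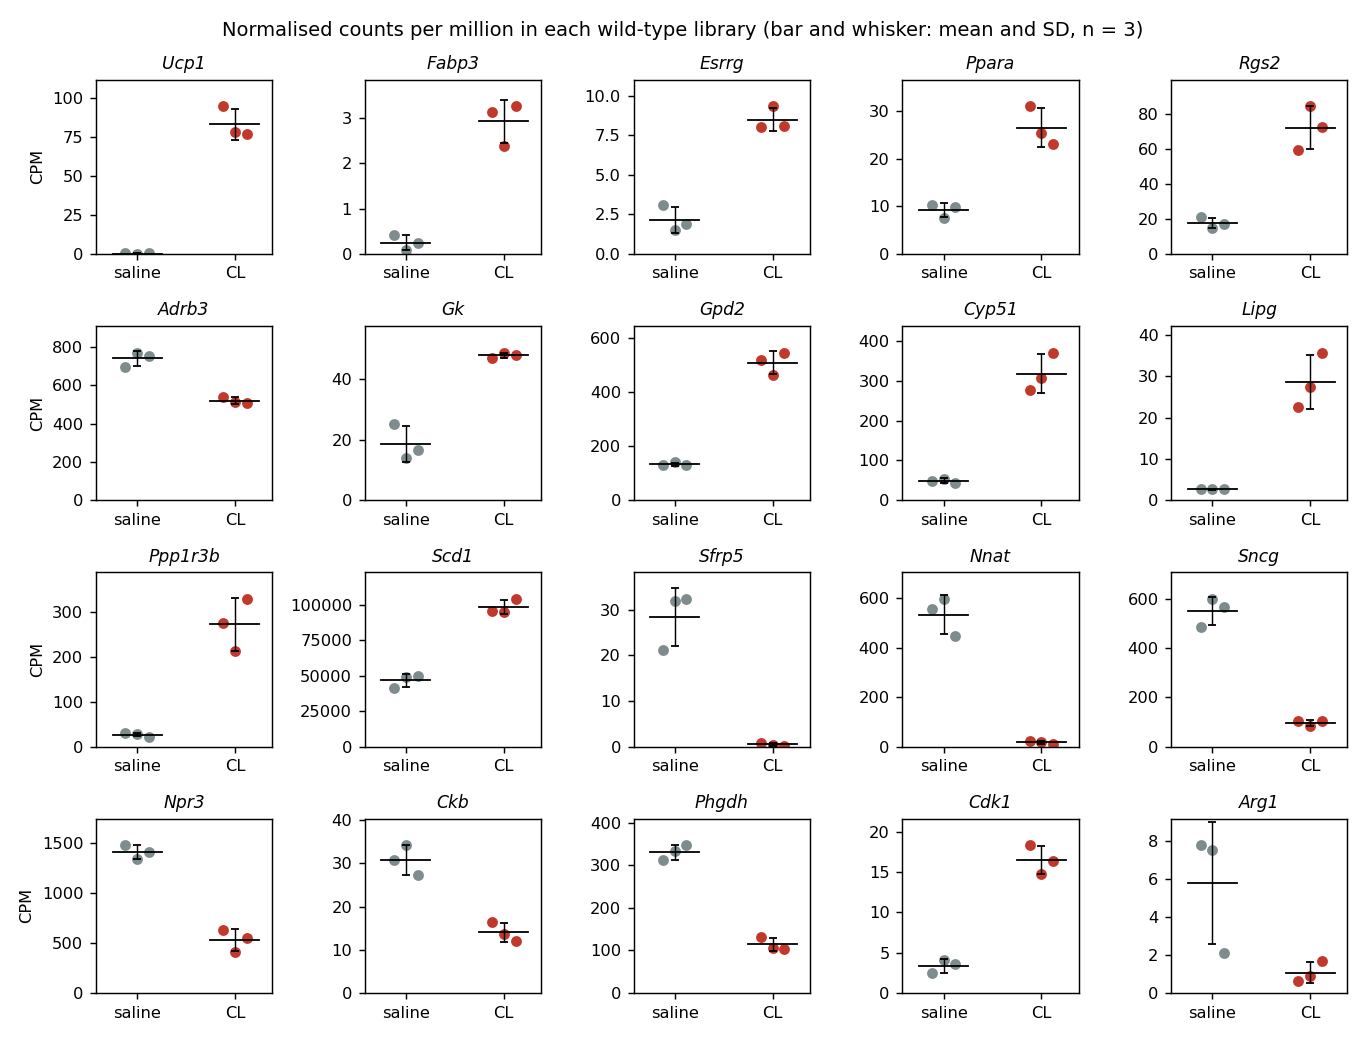
CPM of 20 genes in each of the 3 wt saline and 3 wt CL libraries, with the mean and SD of each group. Ucp1 goes from at most 0.339 CPM under saline to at least 76.6 CPM under CL, and the Arg1 panel shows wt saline 3, at 2.10 CPM, next to the CL libraries.

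Of 18 lipid droplet genes 7 rose and 3 fell (median 0.15, or -0.17 and 3 higher and 7 lower with library size alone), and 1 fell without wt CL 3. Plin5, which ties droplets to mitochondria, was at 5.05, 4.80 and 4.55 CPM and then at 21.7, 17.9 and 16.8 CPM (log2 fold change 1.97 ± 0.20 SE, adjusted p = 1.28e-05), and Plin2, a droplet coat of many tissues, rose 2.74-fold. Plin1, the coat of the white adipocyte's large droplet, was at 1224 to 1367 and 1078 to 1398 CPM and was not called (-0.07 ± 0.17, adjusted p = 0.774). Of 15 lipases and their regulators 8 rose and 1 fell (median 0.51, or 4 higher and 3 lower with library size alone). Abhd5, the coactivator that frees the first lipase of lipolysis, was at 192, 195 and 205 and then 413, 434 and 434 CPM (1.11 ± 0.11, adjusted p = 1.00e-05). That lipase gene, Pnpla2, rose 1.42-fold, a call lost without wt saline 1 (adjusted p = 0.0546) or with library size alone (adjusted p = 0.214), whereas Lipe, hormone-sensitive lipase, was at 1847 to 1953 and 1540 to 1971 CPM and was not called (-0.10 ± 0.15, adjusted p = 0.663).

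Fatty acid uptake genes changed in part, with 14 of 26 higher and 4 lower (median 0.29, or -0.02 and 8 higher and 5 lower with library size alone). Slc27a1, a fatty acid transporter, was at 227, 256 and 261 CPM and then at 668, 669.5 and 593 CPM (log2 fold change 1.38 ± 0.08 SE, adjusted p = 3.93e-07). Fabp5, a fatty acid binding protein, rose 3.69-fold. Angptl8, an inhibitor of lipoprotein lipase, rose 6.06-fold, to 67.6, 28.4 and 67.6 CPM, and Gpihbp1, which anchors that lipase on capillaries, 1.37-fold, a call lost with library size alone (adjusted p = 0.215). Lpl, lipoprotein lipase, was at 17158 to 19210 and 19102 to 20517 CPM (0.15 ± 0.10, adjusted p = 0.267), and Cd36 at 4875 to 5066 and 4596 to 4989 CPM (-0.07 ± 0.11, adjusted p = 0.662), so neither was called.

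Glycerol 3-phosphate for new triglyceride can come from glucose, from pyruvate through the enzyme PEPCK, or from free glycerol through glycerol kinase. Gk, glycerol kinase, was at 25.3, 13.8 and 16.8 CPM and then at 47.1, 48.9 and 48.0 CPM (log2 fold change 1.36 ± 0.21 SE, adjusted p = 0.000301). Gpd2, the mitochondrial glycerol 3-phosphate dehydrogenase, was at 129.9, 140.3 and 129.8 and then 518, 465 and 547 CPM (1.94 ± 0.19, adjusted p = 1.13e-05), and its cytosolic partner Gpd1 rose 2.64-fold. Every CL library was above the saline libraries for Gk and Gpd2. Pck1, the cytosolic PEPCK, was at 2831, 2565 and 2050 and 2730, 2117 and 1897 CPM and was not called (-0.14 ± 0.15, adjusted p = 0.491). Agpat2, an acyltransferase of triglyceride assembly, was at 840.0, 814 and 701 and then 2203, 2161 and 2321 CPM (1.505 ± 0.18, adjusted p = 4.56e-05), and Gpam, at the first step, rose 2.04-fold. Aqp9, a glycerol channel, fell 3.05-fold. In all, 14 of 24 such genes rose and 3 fell (median 0.34, or 7 higher and 6 lower with library size alone).

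Fatty acid synthesis had 17 of 21 genes higher and 2 lower (median 0.99), or 15 higher and 4 lower with library size alone. Without any 1 saline library, wt CL 2 or wt CL 3, 1 was lower. Slc25a1, which carries citrate out of mitochondria, was at 434, 402 and 414 CPM and then at 1978, 1795 and 2030 CPM (log2 fold change 2.22 ± 0.14 SE, adjusted p = 6.06e-07). Acly, which splits citrate into acetyl-CoA, was at 2020, 2298 and 1964 and then 9348, 7486 and 10845 CPM (2.14 ± 0.25, adjusted p = 3.71e-05). In both the groups were apart, and the CL libraries of Acly spread more than its saline libraries. Acacb, an acetyl-CoA carboxylase, rose 4.06-fold, Me1, the malic enzyme that supplies NADPH, 3.05-fold, and Fasn, fatty acid synthase, 1.95-fold. The NADPH and pentose phosphate list had 15 of 20 higher and 2 lower (median 0.63, or 11 higher and 4 lower with library size alone), with Pgd, a dehydrogenase that makes NADPH, 2.67-fold higher. Elongation, desaturation and acyl-CoA genes had 20 of 37 higher and 6 lower, but 3 lower without wt saline 1 and 3 without wt CL 1, and 17 higher and 10 lower with library size alone. Acsl3, an acyl-CoA synthetase, rose 3.72-fold, Elovl6, which lengthens palmitate, 6.49-fold, and Fads1, a desaturase of polyunsaturated fatty acids, fell 1.89-fold.

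Cholesterol genes had 20 of 24 higher and 1 lower (median 1.19). Cyp51, lanosterol demethylase, was at 49.0, 54.6 and 42.4 CPM under saline and 277, 307 and 371 CPM under CL (log2 fold change 2.71 ± 0.16 SE, adjusted p = 5.23e-07). Insig1, which holds the transcription factor SREBP in the endoplasmic reticulum, was at 189, 217 and 207 and then 795, 865 and 915 CPM (2.07 ± 0.13, adjusted p = 7.33e-07). No library of one group reached the other. Mvd, of the mevalonate pathway, rose 4.44-fold, and Lss, lanosterol synthase, 3.15-fold. Srebf2, the gene of the sterol SREBP, was the member that fell, by 0.28 (adjusted p = 0.0146). Because these members rose together, their promoters were searched on both strands in RefSeq windows of GRCm38.p6 from 250 bases before to 50 after a transcription start. The list had 20 windows, which covered 17 genes. The NF-Y letters CCAATCA stood in 55% of these windows, against 9.19% of the 15492 windows of all tested genes. They stood in 14.1% of windows of all genes called at least 2-fold higher and 5.51% of those called at least 2-fold lower. For the fatty acid synthesis list this share was 10.3% of 29 windows. The SREBP letters TCACNCCAC stood in only 1 window of the cholesterol list (5%), against 1.19% of all windows. The windows of the 2 members with the largest rise that hold the NF-Y letters are shown 5′ to 3′ with those letters, or their reverse complement, in capitals. That of Mvd is chr8:122443373-122443672, minus strand, and that of Lss chr10:76531355-76531654, plus strand, 300 bases each.
Mvd: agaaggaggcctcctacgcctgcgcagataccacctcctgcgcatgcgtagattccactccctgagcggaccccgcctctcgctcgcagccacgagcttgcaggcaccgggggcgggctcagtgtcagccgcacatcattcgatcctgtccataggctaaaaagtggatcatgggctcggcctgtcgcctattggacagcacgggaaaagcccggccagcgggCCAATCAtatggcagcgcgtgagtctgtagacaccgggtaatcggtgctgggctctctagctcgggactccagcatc
Lss: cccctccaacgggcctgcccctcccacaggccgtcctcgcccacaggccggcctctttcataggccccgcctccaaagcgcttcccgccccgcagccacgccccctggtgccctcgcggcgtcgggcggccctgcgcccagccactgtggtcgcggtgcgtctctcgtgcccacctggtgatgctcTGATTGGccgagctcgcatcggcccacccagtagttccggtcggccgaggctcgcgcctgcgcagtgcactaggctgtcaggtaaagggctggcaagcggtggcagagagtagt

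Mitochondrial fatty acid oxidation had 19 of 23 genes higher and 1 lower (median 1.32), and peroxisomal oxidation and biogenesis 26 of 35 higher and 0 lower (median 0.57, or 19 higher and 4 lower with library size alone). Acadl, a dehydrogenase of long-chain acyl-CoA, was at 343, 339.6 and 355 CPM and then at 1451, 1444 and 1401 CPM (log2 fold change 2.05 ± 0.15 SE, adjusted p = 1.49e-06). Acaa1b, a peroxisomal thiolase, was at 68.5, 67.8 and 66.8 and then 376, 409 and 335 CPM (2.46 ± 0.14, adjusted p = 4.02e-07). The libraries of each group lay close together in both genes. Slc25a20, the carnitine carrier, rose 3.45-fold, Hadha, of the trifunctional enzyme, 2.997-fold, and Abcd3, a peroxisomal transporter of acyl-CoA, 2.21-fold. Pdk4, the kinase that turns off pyruvate oxidation, was at 45.5, 56.7 and 47.5 and then 227, 261 and 242 CPM (2.29 ± 0.11, adjusted p = 2.61e-07). In the breakdown of branched-chain amino acids 23 of 27 genes rose (median 0.61), among them Slc25a44, their mitochondrial carrier, 1.89-fold, and Acadsb 1.75-fold. Bcat1, the cytosolic transaminase, was the member that fell, from 3.91 to 7.95 CPM under saline to 1.79 to 3.41 CPM under CL.

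The tricarboxylic acid cycle and pyruvate list had 29 of 32 higher and 1 lower (median 1.21), and nuclear genes of complexes II to IV, with cytochrome c, 27 of 30 higher (median 1.09). In complex I, which takes electrons from NADH, 9 of 10 genes of the NADH-oxidising N module rose (median 0.78), 5 of 5 of the quinone-binding Q module (0.84), 19 of 20 of the membrane modules (0.81) and 13 of 16 assembly factors (0.56). ATP synthase had 15 of 18 higher (0.85), and coenzyme Q synthesis 11 of 13 (0.70). None of the genes of complexes I to IV, ATP synthase and coenzyme Q synthesis was called lower. With library size alone, 1 of complexes II to IV, 1 of ATP synthase and 1 of coenzyme Q synthesis were. Uqcrfs1, the iron-sulfur protein of complex III, was at 157, 151 and 154 CPM and then at 472, 448 and 463 CPM (log2 fold change 1.58 ± 0.12 SE, adjusted p = 1.91e-06). Cycs, cytochrome c, was at 107, 114 and 102 and then 324, 282 and 331 CPM (1.53 ± 0.15, adjusted p = 9.07e-06). Replicates of both genes differed little against the change. The letters GCATGCGC of the NRF1 element stood in 12.3% of the 106 windows of nuclear respiratory chain and tricarboxylic acid cycle genes, against 4.47% of all windows. The cyclic AMP response element TGACGTCA stood in 8.49%, or 9 windows of 7 genes, against 2.69%. Among all genes called at least 2-fold higher, the NRF1 letters stood in 5.3% of windows and TGACGTCA in 2.48%. Among those called at least 2-fold lower, these shares were 2.11% and 1.13%. The window of Cycs, chr6:50566520-50566819, minus strand, is shown as that of the gene of complexes II to IV with the largest rise that holds the NRF1 letters, which are in capitals.
Cycs: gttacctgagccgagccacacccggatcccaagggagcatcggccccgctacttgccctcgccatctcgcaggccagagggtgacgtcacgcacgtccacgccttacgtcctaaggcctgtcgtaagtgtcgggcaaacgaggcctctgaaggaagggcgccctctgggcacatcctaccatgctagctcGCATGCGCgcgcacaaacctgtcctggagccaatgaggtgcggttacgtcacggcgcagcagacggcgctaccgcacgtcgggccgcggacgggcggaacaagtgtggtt

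All 7 mitochondrial messenger RNAs that could be tested rose (median 1.35). mt-Nd6, a complex I subunit and the messenger of the other strand, was at 9.15, 8.09 and 9.15 CPM and then at 41.6, 29.3 and 40.6 CPM (log2 fold change 2.08 ± 0.17 SE, adjusted p = 3.57e-06). The mitochondrial ribosomal RNAs mt-Rnr1 and mt-Rnr2, 2 of the 3 largest rises among noncoding genes with Gssos1, went from 142, 201 and 193 to 863, 822 and 949 CPM (2.30 ± 0.16) and from 192, 245 and 214 to 910.4, 864 and 966 CPM (2.07 ± 0.14). Every CL library was higher than every saline library in these 3 genes. Of the nuclear genes that express this genome, 61 of 75 mitochondrial ribosomal protein genes rose and 0 fell (median 0.50, with 36 higher under library size alone), and 13 of 17 tRNA synthetases rose (0.40). Import had 17 of 21 higher and 1 lower (0.45), chaperones and proteases 18 of 20 higher (0.73), and dynamics, cristae and cardiolipin 22 of 28 higher (0.46), the last with 14 higher and 4 lower with library size alone. Chchd10, a protein of the cristae, was at 12.0, 15.6 and 17.2 and then 115, 89.5 and 81.6 CPM (2.67 ± 0.22, adjusted p = 3.17e-06). Mitophagy genes had 3 of 17 higher and 2 lower (1 without wt saline 2, wt saline 3, wt CL 2 or wt CL 3), shares below those of all genes, and 1 higher and 10 lower with library size alone. Cytosolic ribosomal proteins had 4 of 88 higher and 15 lower (median -0.15), the latter near the share of all genes, or 0 higher and 75 lower with library size alone (median -0.47), and 6 were lower without wt CL 2, 8 without wt saline 2, 8 without wt CL 3 and 27 without wt CL 1, while 2 were higher without wt saline 1.

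In the antioxidant list 16 of 36 rose and 5 fell (median 0.16, or -0.15 and 7 higher and 17 lower with library size alone). Prdx3, a mitochondrial peroxidase, was at 171, 186 and 186 CPM and then at 480.4, 444 and 461 CPM (log2 fold change 1.35 ± 0.13 SE, adjusted p = 1.12e-05), and Sod2, the mitochondrial superoxide dismutase, rose 2.01-fold. Gpx3, a secreted glutathione peroxidase, fell 1.85-fold and Gstm1, a cytosolic glutathione transferase, 1.91-fold. Heme and iron-sulfur synthesis had 19 of 28 higher and 1 lower (median 0.41, or 7 higher and 7 lower with library size alone), with Abcb10, a mitochondrial transporter needed for heme synthesis, 1.86-fold higher. The one that fell was not called without any 1 library other than wt CL 1.

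Of 27 genes of glucose uptake and glycolysis 17 rose and 3 fell (median 0.64, or 13 higher and 7 lower with library size alone). Slc2a4, the insulin-regulated transporter GLUT4, was at 198, 221 and 228 CPM and then at 477, 385 and 475 CPM (log2 fold change 1.05 ± 0.18 SE, adjusted p = 0.000626), whereas Slc2a3, another glucose transporter, fell 1.82-fold. Pgam1 rose 2.33-fold and Pgk1 2.28-fold, both enzymes of lower glycolysis. In glycogen metabolism 12 of 26 rose and 7 fell (median 0.30, or -0.02 and 9 higher and 11 lower with library size alone). Gys2, the liver-type glycogen synthase, was at 41.2, 63.5 and 54.9 and then 213, 187 and 219.9 CPM (1.96 ± 0.26, adjusted p = 0.000106), while Pygb, the brain-type phosphorylase, fell 1.52-fold. Phgdh, which draws glycolytic carbon into serine, was at 312, 334 and 347 and then 132, 106 and 104 CPM (-1.54 ± 0.10, adjusted p = 9.02e-07). All CL libraries lay below the saline libraries. The ketone-using enzymes Oxct1 and Acat1 rose 1.44-fold and 2.06-fold.

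**Figure D3:**
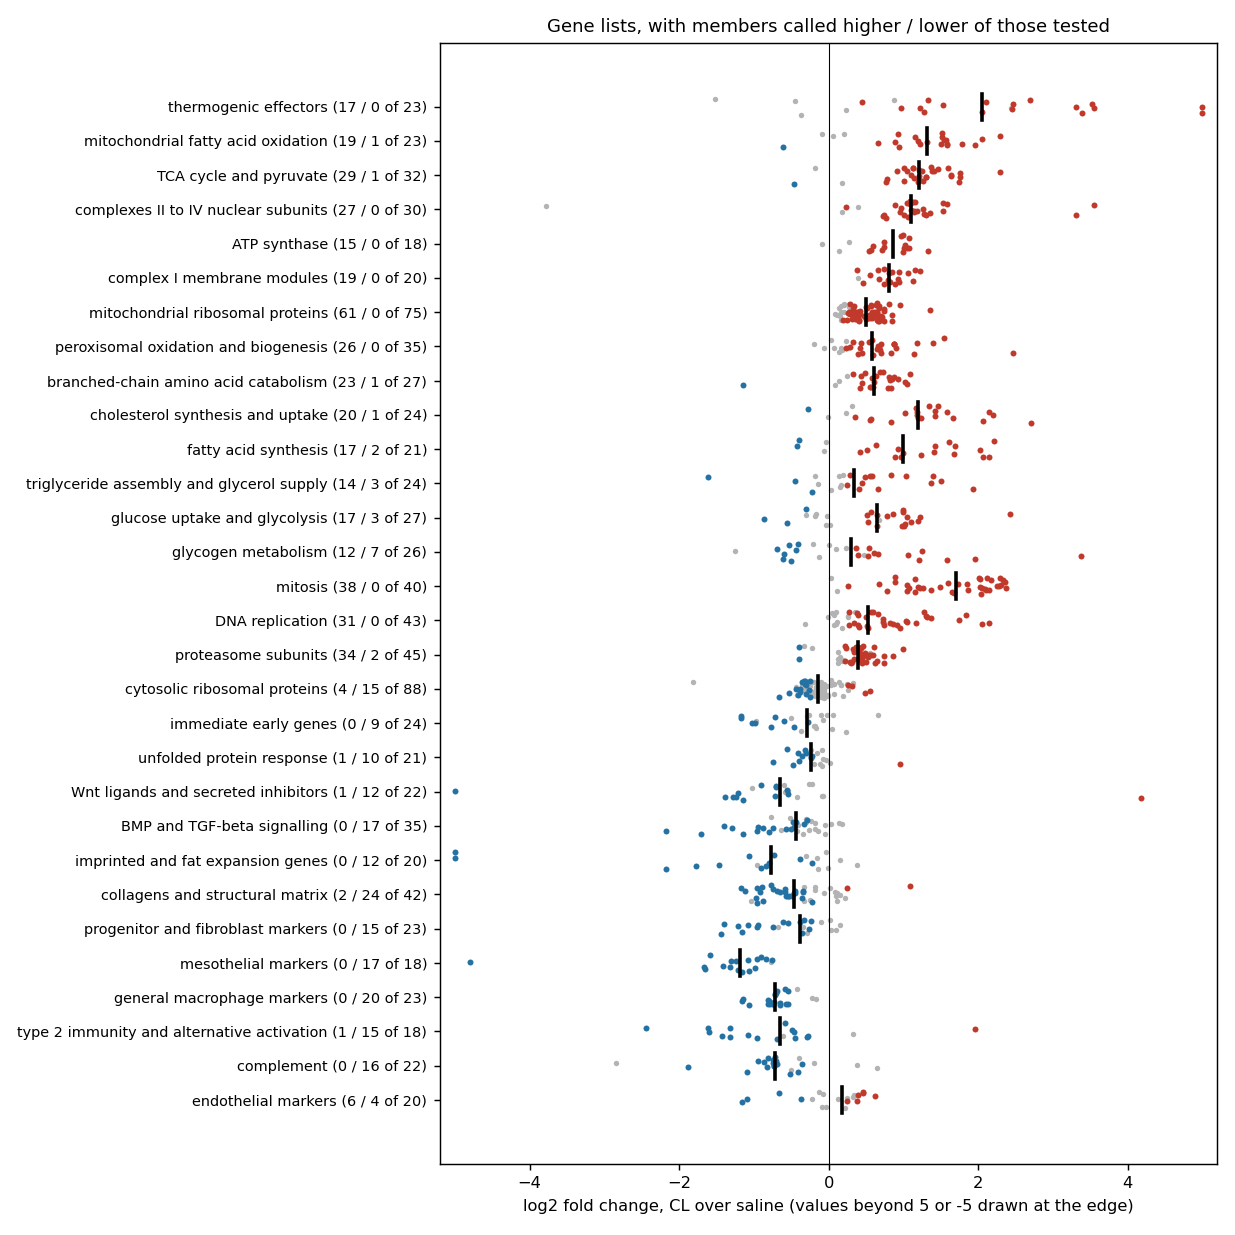
Log2 fold change of CL over saline for each tested member of 30 gene lists, coloured by call, with the list median marked and the counts of members higher and lower. The medians reach 2.05 for thermogenic effectors and -1.18 for mesothelial markers.

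Of 36 adipokines and other secreted factors 8 rose and 14 fell (median -0.31, 5 higher and 22 lower with library size alone), and 5 rose without wt saline 1, wt saline 3, wt CL 1 or wt CL 2 each. Lep, leptin, was at 1075, 1175 and 1360 CPM and then at 605, 574 and 621 CPM (log2 fold change -1.004 ± 0.11 SE, adjusted p = 1.73e-05). Adipoq, adiponectin, was at 3004, 3386 and 3610 and 2859, 2613 and 2829 CPM and was not called (-0.27 ± 0.11, adjusted p = 0.0773), although its libraries did not overlap and DESeq2 called it lower (adjusted p = 0.0200). Rarres2, chemerin, fell 1.998-fold, and Nrg4, a neuregulin of brown fat, rose 2.16-fold. Npr3, the receptor that clears natriuretic peptides, another lipolytic signal, was at 1472, 1332 and 1401 and then 625, 408 and 544 CPM (-1.41 ± 0.16, adjusted p = 3.05e-05). In insulin and IGF signalling 6 of 29 rose, a share near that of all genes, and 10 fell (1 higher and 19 lower with library size alone). Without wt saline 3, 3 of these genes were higher. Grb14, an adaptor that inhibits the insulin receptor, fell 3.11-fold, and the IGF carriers Igfbp5 and Igfbp4 2.76-fold and 1.91-fold.

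Of 22 tested Wnt ligands and secreted inhibitors 12 fell and Wnt8b rose (median -0.65), and of 35 BMP and TGF-beta genes 17 fell and 0 rose (median -0.44). Bmp3, an antagonist of BMP signalling in bone, was at 38.2, 37.5 and 44.4 CPM and then at 9.89, 8.15 and 8.55 CPM (log2 fold change -2.18 ± 0.24 SE, adjusted p = 2.43e-05). Bmp7, which can induce brown fat genes, fell 2.63-fold, Tgfb3 1.84-fold, and the Wnt agonist Rspo1 2.37-fold. Imprinted genes and genes of fat expansion had 12 of 20 lower and 0 higher (median -0.77). Mest, a marker of adipocyte growth, was at 181, 149.8 and 122 and then 47.9, 62.4 and 53.2 CPM (-1.47 ± 0.15, adjusted p = 1.59e-05), and Plagl1, a transcription factor of the imprinted network, fell 3.41-fold. Every saline library exceeded every CL library for Bmp3 and Mest. Rian, an imprinted noncoding RNA, fell 1.74-fold, and the noncoding gene Gssos1 rose from 1.17 to 1.36 CPM under saline to 11.01 to 12.6 CPM under CL (3.20 ± 0.28).

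The circadian clock list had 4 of 19 higher and 4 lower at zeitgeber time 9, shares near those of all genes (median 0.01). With library size alone 3 were higher and 10 lower (median -0.30). Cry1, a clock repressor, was at 8.74, 6.84 and 8.11 CPM and then at 16.0, 13.9 and 18.99 CPM (log2 fold change 1.04 ± 0.14 SE, adjusted p = 0.000125), and Nfil3 rose 2.17-fold. Nr1d1, the repressor REV-ERB alpha, fell 1.70-fold and Per2 1.58-fold.

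Of 40 mitosis genes 38 rose and 0 fell, 33 of them at least 2-fold higher (median 1.71), and of 43 replication genes 31 rose and 0 fell, 11 at least 2-fold higher (median 0.52). With library size alone 37 and 17 rose, and 0 and 5 fell. Tpx2, a spindle factor, was at 2.41, 2.84 and 2.10 CPM under saline and 12.6, 12.7 and 12.5 CPM under CL (log2 fold change 2.37 ± 0.19 SE, adjusted p = 3.17e-06). Cdk1, the kinase that starts mitosis, was at 2.45, 4.08 and 3.56 and then 18.3, 14.8 and 16.3 CPM (2.29 ± 0.22, adjusted p = 8.88e-06). Every CL library was above every saline library in both. Rrm2, of ribonucleotide reductase, rose 4.16-fold, Cdc6, which loads the replicative helicase, 2.58-fold, and Pcna, the sliding clamp, was not called (0.04 ± 0.12, or -0.28 with library size alone, adjusted p = 0.832). The cell cycle inhibitor genes Cdkn1a and Cdkn1c went opposite ways, 1.74-fold higher and 2.10-fold lower. Which cell types held the division transcripts was not tested. The cell cycle homology region TTTGAA stood in 80% of the 35 windows of the mitosis list, 22.5% of the 40 of the replication list and 12.8% of all windows. For the E2F letters TTTGGCGC or TTTCCCGC these shares were 5.71%, 27.5% and 2.57%, and for CCAATCA 42.9%, 25% and 9.19%. TTTGAA stood in 21.9% of windows of all genes called at least 2-fold higher and 13.0% of those called at least 2-fold lower. The windows of the 2 mitosis genes with the largest rise that hold both TTTGAA and CCAATCA, and of the replication gene with the largest rise that holds E2F letters, are shown with those letters or their reverse complement in capitals. They are chr10:69352863-69353162, minus strand, for Cdk1, chr9:83834439-83834738, plus strand, for Ttk, a spindle checkpoint kinase that rose 4.86-fold, and chr11:98907901-98908200, plus strand, for Cdc6.
Cdk1: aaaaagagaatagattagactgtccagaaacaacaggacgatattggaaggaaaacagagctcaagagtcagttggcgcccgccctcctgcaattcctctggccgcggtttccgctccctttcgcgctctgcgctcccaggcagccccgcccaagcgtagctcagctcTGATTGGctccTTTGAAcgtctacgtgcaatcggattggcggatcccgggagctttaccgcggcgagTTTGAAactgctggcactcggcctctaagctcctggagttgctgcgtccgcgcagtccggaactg
Ttk: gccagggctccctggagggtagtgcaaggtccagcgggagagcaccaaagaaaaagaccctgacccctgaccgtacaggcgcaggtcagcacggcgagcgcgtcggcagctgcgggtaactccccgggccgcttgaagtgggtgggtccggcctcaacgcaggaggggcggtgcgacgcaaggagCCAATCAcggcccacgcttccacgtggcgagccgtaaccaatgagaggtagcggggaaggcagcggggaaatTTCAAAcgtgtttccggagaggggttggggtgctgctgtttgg
Cdc6: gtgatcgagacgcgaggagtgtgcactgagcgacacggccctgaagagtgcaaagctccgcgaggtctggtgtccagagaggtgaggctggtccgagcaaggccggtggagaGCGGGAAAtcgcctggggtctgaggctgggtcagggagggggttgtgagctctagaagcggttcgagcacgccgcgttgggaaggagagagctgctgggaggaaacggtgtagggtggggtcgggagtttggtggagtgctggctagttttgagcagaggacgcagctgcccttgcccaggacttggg

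Of 23 progenitor and fibroblast markers 15 fell and 0 rose (median -0.39), and of 42 structural matrix genes 24 fell and 2 rose (median -0.46), or 1 without any 1 library other than wt CL 1. Dpt, dermatopontin, was at 511, 476 and 506 CPM and then at 189, 168 and 193 CPM (log2 fold change -1.44 ± 0.08 SE, adjusted p = 2.81e-07). Timp4, an inhibitor of matrix proteases, was at 261, 326 and 389 and then 48.7, 53.2 and 50.1 CPM (-2.68 ± 0.20, adjusted p = 1.91e-06). The groups stayed apart in both genes. Adamts5, a protease that cuts matrix proteoglycans, fell 3.09-fold, its relative Adamts4 rose 2.64-fold, and Tnc, tenascin C, rose 2.13-fold, against the direction of its list. Of 18 mesothelial markers 17 fell (median -1.18), with Msln, mesothelin, at 55.1, 73.7 and 69.3 and then 18.4, 21.9 and 22.0 CPM. Endothelial markers had 6 of 20 higher and 4 lower (median 0.17), but with library size alone 0 higher and 8 lower (-0.14), and 2 were lower without wt CL 3. Cspg4, the pericyte proteoglycan NG2, rose 2.72-fold, and Acta2, smooth muscle actin, was at 201, 376 and 177 CPM, highest in wt saline 2, and 95.1, 96.4 and 82.1 CPM (-1.46 ± 0.27).

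General macrophage markers had 20 of 23 lower and 0 higher (median -0.72), and they summed to 2181 to 2273 CPM under saline and 1175 to 1397 CPM under CL. Of 18 genes of type 2 immunity, which includes alternatively activated macrophages, 15 fell and 1 rose (median -0.66). Retnla, a resistin-like protein of these macrophages, was at 443, 506 and 475 CPM and then at 141, 184 and 202 CPM (log2 fold change -1.43 ± 0.14 SE, adjusted p = 1.12e-05), and Mgl2, a lectin of these cells, fell 2.49-fold. MHC class II had 10 of 13 lower (-0.75) and complement 16 of 22 (-0.73), with C4b at 912, 793 and 886 and then 293, 217 and 192 CPM (-1.88 ± 0.13). Of 26 genes of lipid-associated macrophages and lysosomes, 3 rose and 4 fell, shares below those of all genes. In this list of lipid-associated macrophages 2 fell without wt CL 2, and 3 were higher and 13 lower with library size alone. Trem2, the lipid receptor of these cells, was at 4.97, 5.64 and 5.09 and 8.05, 4.67 and 3.56 CPM (0.04 ± 0.29, or -0.27 with library size alone, adjusted p = 0.921), and wt CL 1 was the highest of the 6. T and NK cell markers had 2 of 24 lower and 0 higher, but none lower without wt saline 2, wt saline 3, wt CL 1 or wt CL 2 and 1 without wt CL 3, with sums of 53.02 to 66.0 and 43.4 to 63.1 CPM. In the unfolded protein response 10 of 21 fell and the chaperone gene Dnajb9 rose 1.93-fold. Proteasome subunits had 34 of 45 higher (median 0.39) and 2 lower, or 12 higher and 6 lower with library size alone. The 2 that fell were genes of the immunoproteasome, Psmb8, 1.32-fold lower, and Psmb10, 1.32-fold lower, a call that was lost without wt saline 2, wt CL 2 or wt CL 3 (adjusted p = 0.111, 0.0728 and 0.0970).

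Some genes called lower were carried by 1 saline library, counted as such where that library had at least 5 CPM and at least 5 times the next saline library. wt saline 1 carried 33 genes, of which 22 were called lower, all at least 2-fold. Several are genes of motile cilia or of duct epithelium. Dcdc2a was at 15.7, 0 and 0.712 CPM under saline and 0, 0 and 0 CPM under CL, and the tight junction gene Cldn2 at 11.5, 0 and 0.854 and 0, 0.0543 and 0 CPM. Both were nearly confined to wt saline 1 among the 6 libraries, with up to 0.854 CPM in wt saline 3. Of 28 motile cilia genes 14 were called lower (median -3.21), 1 without wt saline 1 (median -0.80), and 4, 2 and 1 without wt CL 1, wt CL 2 and wt CL 3. Tekt1, of the ciliary axoneme, was the member that rose, from 3.01, 1.52 and 1.92 to 5.37, 4.24 and 5.09 CPM. wt saline 2 carried 8 genes, all called lower, and all of them encode seminal vesicle secretions or their relatives. Svs5 was at 0.151, 174 and 2.31 CPM under saline and 0.503, 0.109 and 0.153 CPM under CL (log2 fold change -7.85 ± 2.41 SE, adjusted p = 0.0220), and Svs2 at 0.0377, 159 and 1.99 and 0.0559, 0.0543 and 0 CPM. Only wt saline 2, and at a small fraction wt saline 3, held more than 1 CPM of these 2 genes. Without wt saline 2, or without any 1 wt CL library, none of the 9 tested genes of this list was called lower. Of 20 epididymis and testis genes 1 passed the filter for low counts. The part of such tissue in the other calls was not tested. Of the 723 genes called at least 2-fold lower, 178 were not called without wt saline 1 and 78 without wt saline 2, with 545 and 645 still called. Without wt saline 3, wt CL 1, wt CL 2 and wt CL 3 in turn, 647, 542, 503 and 511 of them were still called. A call lost without wt saline 1 or 2 is therefore not by itself a sign of such tissue.

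**Figure D4:**
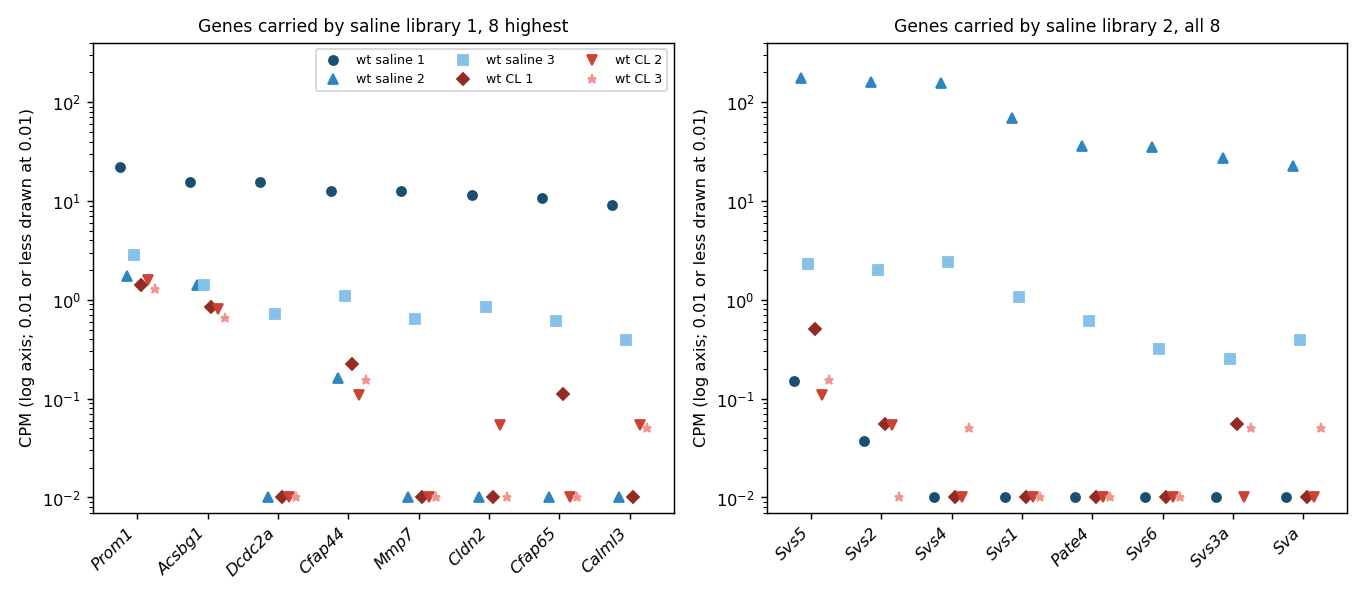
CPM on a log axis, in each of the 6 wt libraries, of the 8 highest genes carried by wt saline 1 (left) and the 8 carried by wt saline 2 (right), with values under 0.01 drawn at 0.01. wt saline 1 reaches 22.3 CPM for Prom1 and wt saline 2 174 CPM for Svs5.

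The response was set beside that of ko fat by testing the difference of the 2 CL responses, ko minus wt, which was called for 7510 of all genes (45.4%). By direction, 3903 of the 16554 genes were called in favour of wt (a more positive response in wt) and 3607 in favour of ko. Ucp1 rose by 8.66 in wt and was at 8.43 in ko (adjusted p = 2.54e-06) on the log2 scale, and the difference was not called (-0.23 ± 2.63 SE, adjusted p = 0.951). With an error this wide, the Ucp1 test could miss a sizeable difference. Thermogenic effectors as a list had medians of 2.05 in wt and 0.84 in ko. Their difference was called in favour of wt for 12 of 23 genes and of ko for 1. The cholesterol list had medians of 1.19 in wt and -0.31 in ko, with the difference called in favour of wt for 20 of 24 genes and of ko for 0. Pdk4 rose by 2.29 in wt and was at -0.36 in ko (difference -2.64 ± 0.16 SE, adjusted p = 1.03e-07). For branched-chain amino acid genes the medians were 0.61 and -0.38, and 23 of 27 differed in favour of wt and 2 of ko. The mitosis medians were 1.71 and 1.87, and of 40 genes 1 differed in favour of wt and 8 of ko, the latter near the share of all genes. General macrophage markers had medians of opposite sign, -0.72 in wt and 1.99 in ko, and 19 of 23 were more negative in wt and 2 more positive. Motile cilia genes had medians of -3.21 in wt and -3.46 in ko, where 27 of 28 were called lower. For 4 of these cilia genes the difference was called in favour of wt and for 0 of ko. The part of ciliated tissue in the comparison of genotypes was not tested. Sfrp5 was at -5.92 and -5.23 (adjusted p = 0.467 for the difference) and Prr32 at -3.79 and -3.89 (adjusted p = 0.842). Ckb was at -1.13 in wt and 1.66 in ko (difference 2.79 ± 0.24 SE, adjusted p = 1.70e-06), with opposite signs in the 2 genotypes.

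**Figure D5:**
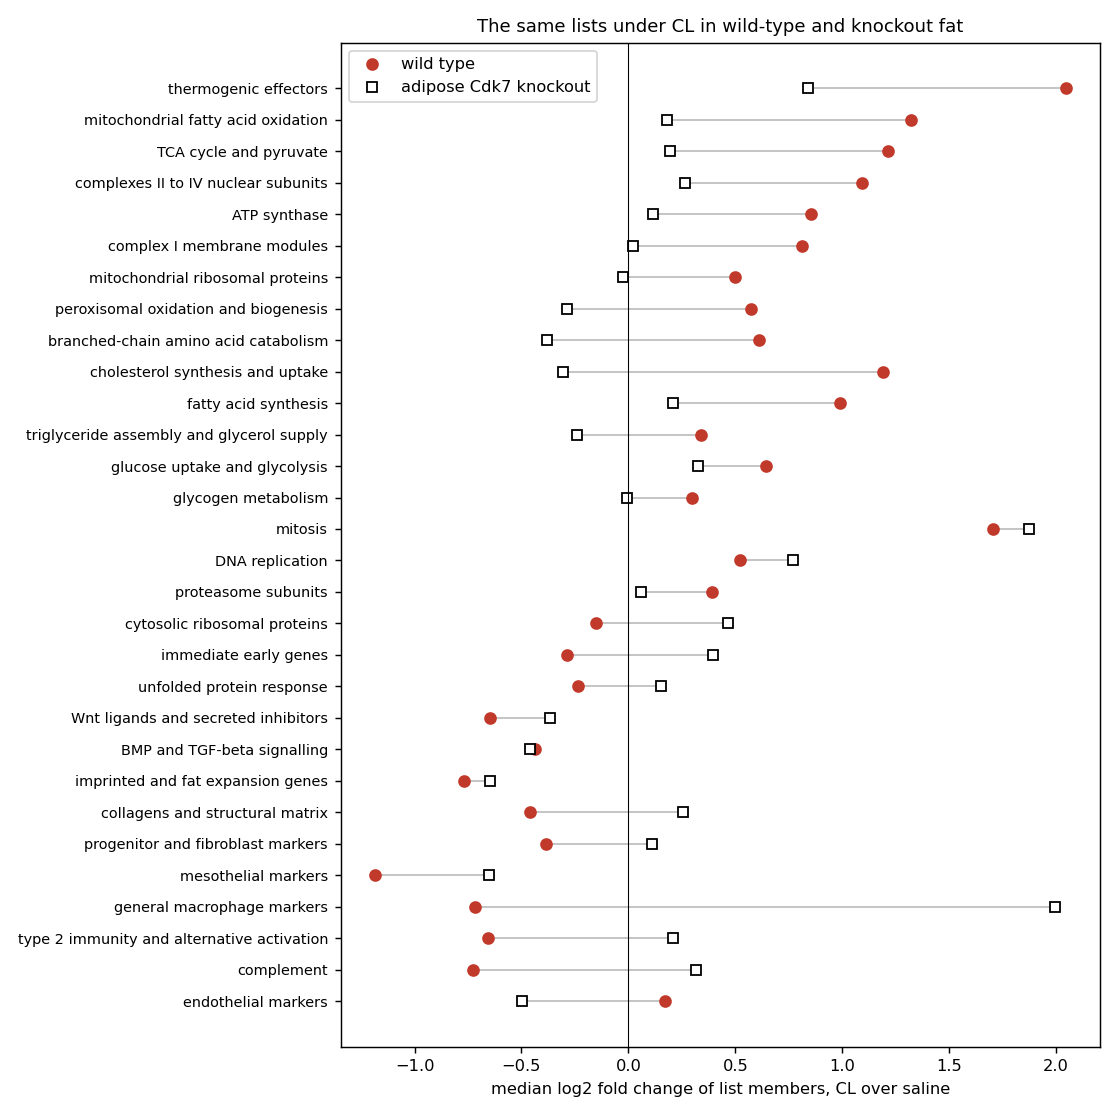
Median log2 fold change of CL over saline over the tested members of gene lists, in wt and in ko fat. General macrophage markers lie at -0.72 in wt and 1.99 in ko, and the mitosis list at 1.71 and 1.87.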

How the data were processed

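RNA-seq counts of 12 perigonadal fat libraries were used, of which the 6 wild-type libraries, in groups of 3, carry the results. The deposited values are whole-number counts per gene of the authors, who used STAR, HTSeq and GRCm38, per the submitters' processing notes, with versions not given in the sources used here. Counting was on the reverse strand, as the file names say. The 5 summary lines of each file were dropped, with 12.6% to 13.2% of reads in wt saline and 16.5% to 17.2% in wt CL. GENCODE M21 gave symbols for 53274 of 53379 gene IDs.

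Genes were filtered with filterByExpr (minimum count 10), scaled by TMM and tested with edgeR 4.0.16 by quasi-likelihood in R 4.3.3. All 12 libraries entered 1 fit with 1 mean per group and 8 residual degrees of freedom, with Benjamini-Hochberg adjustment over 16554 genes. CPM values are scaled by TMM. The common biological coefficient of variation was 11.5%. No exact permutation test of single genes is given, since 3 libraries against 3 allow no p under 0.1.

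The members and gene lists were chosen with earlier results of these data known. Named genes were the 15 largest rises and 15 largest falls by log2 fold change of called coding genes with at least 5 CPM in 1 group and no overlap of the groups, and the 10 largest of each in mean CPM. Added were up to 4 called members of each list by adjusted p with up to 2 that moved against it, the 3 largest noncoding rises and falls, genes under 0.5 CPM in all libraries of 1 group and at 2 CPM or more in all of the other, 14 fixed genes, and genes carried by 1 saline library. Not every gene so chosen is printed, and some are not reported here. Angptl8, Cd36, Cdc6, Cdk1, Cycs, Elovl6, Fos, Lipe, Lpl, Lss, Lyz2, Otop1, Pcna, Pde3b, Pde4a, Pde4d, Pde7b, Plin1, Pnpla2, Prdm16, Slc2a4, Trem2 and Ttk fall outside this rule and were chosen after their values were seen.

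Promoter windows came from RefSeq (GRCm38.p6), which had one for 12167 of 16549 tested symbols. Besides the motifs printed with the results, the ERR letters TCAAGGTCA (0.265% of all windows) and a PPAR direct repeat (0.0452%) were searched. No motif's letters contain another's. A match is a description, not a binding site. Alternatives were DESeq2 1.42.0, library size alone, no filter on low counts, the 6 wild-type libraries alone, a replicate block, and leaving out libraries.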

Additional observations from a re-analysis of the deposited data

Results flagged for a closer look

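The CL response differed between wt and ko fat for 7510 genes by the test of the difference itself (edgeR's quasi-likelihood test, Benjamini-Hochberg adjustment). Of 43 named genes that were checked, 28 were called, where 45.4% of all genes tested were. Many of the 43 were named for a large change in wt, and the wt change is itself part of the difference. Such a choice can favour calls, so this count cannot be compared directly with the share of all genes. The values listed next are the log2 CL response in ko minus that in wt. The response was more negative in ko for Aadac (-3.60), Hephl1 (-2.57), Cyp51 (-2.47), Lipg (-2.21), Adrb3 (-1.98), Wnt8b (-1.90), Cidea (-1.78), Adrb1 (-1.74), Pck1 (-1.66), Ttc25 (-1.65), Gk (-1.35), Ppp1r3b (-1.29), Ppargc1a (-1.27), Adipoq (-1.13), Timp4 (-0.83), Lep (-0.67) and Pparg (-0.58). It was more positive in ko for Arg1 (4.33), Hspb7 (3.63), Acta1 (3.32), Gatm (3.11), Ckb (2.79), Cacna1e (2.21), Plppr3 (2.21), Nnat (1.86), Lyz1 (1.78), Sncg (0.99) and Cdk7 (0.70). Ttc25 encodes a ciliary protein, and 27 of 28 motile cilia genes were called lower under CL in ko fat. Whether ciliated tissue in some libraries bears on the Ttc25 difference was not tested.

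HTSeq's summary lines, which count reads that were not assigned to 1 gene, took up to 17.2% of reads in wt CL, where the 3 libraries lay at 16.5% to 17.2%, above the 12.6% to 13.2% of wt saline and the 12.5% to 14.5% of the ko libraries. What these reads were was not tested. Groups of 3 libraries were not tested for outlying values.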

How the results depend on the processing

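With the deposited counts scaled by library size alone, 1329 genes were called higher and 8048 lower (394 and 1770 at least 2-fold), and without wt saline 1 and 2 together 1648 and 1360 (619 and 459), with 1 saline library assumed to vary like the other groups. Leaving out 1 wt library at a time gave 2571 to 2914 genes higher, 2077 to 2565 lower, 672 to 708 at least 2-fold higher, 526 to 863 at least 2-fold lower, and 6803 to 7241 whose response differed between genotypes. DESeq2 gave 3048 higher and 3089 lower, no filter on low counts 2609 and 3173, and the 6 wild-type libraries alone 3209 and 3301. Same-numbered wt libraries deviated from their group means with correlations of -0.04, -0.04 and 0.03, and not every library correlated best with its own number. With 3 libraries per group these correlations cannot exclude a pairing, and the titles do not say whether the numbers pair mice. With a replicate block in the fit of 12 libraries 3060 genes were higher and 2649 lower (693 and 662 at least 2-fold), with 7147 differing between genotypes, and with the replicate block and the 6 wild-type libraries 3013 and 3103 (659 and 659). Turns of direction were looked for only in single genes that the text names, not in all genes. Of the named genes whose direction turned, only Atp2a2 was called. With library size alone, Atp2a2 was at -0.035 on the log2 scale, Cdk7 at -0.18, Lpl at -0.17, Pcna at -0.28, Pde3b at -0.30, Pparg at -0.15 and Trem2 at -0.27. Pde3b was at -0.0063 with DESeq2, -0.026 with no filter and -0.011 and -0.012 with the 6 wild-type libraries, without and with the replicate block, and Trem2 was at -0.028 with that block. Pcna was at -0.00021 with no filter. Without 1 library at a time Fos ranged from -0.65 to 0.099, Pcna from -0.015 to 0.12, Pde3b from -0.0073 to 0.043, Plin1 from -0.16 to 0.022, Prdm16 from -0.11 to 0.018 and Trem2 from -0.35 to 0.28. Without wt saline 1 and 2 together Pck1 was at 0.12, Plin1 at 0.019 and Prdm16 at 0.14. The cause of these turns was not tested. Genes with few counts in a group, such as Ucp1 and Svs5, have the widest errors.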
